A study of Rattus norvegicus with 16 samples.

Results

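The expression of 9 genes of the complement system was followed in the rat ventral prostate: C1r, C1s, Serping1, C4b, C2, C3, Cfb, Cfi and Cd55. They were taken by symbol, and all 9 were found among the 28688 entries of the table for postnatal day (PND) 21 and the 24218 entries of the table for PND540, which share 19709 gene names. The samples were 16 ventral prostates, each read as messenger RNA: 4 from PND540 offspring of dams on a low protein diet (GLLP), 5 from PND540 control offspring (CTR), 3 from PND21 GLLP offspring and 4 from PND21 CTR offspring. GLLP dams ate 6% protein through gestation and lactation, and CTR dams ate a normal diet with 17% protein. The strain, and which offspring shared a litter, are not stated in the sources used here, so a p-value here reflects only how these samples scatter.

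Complement is a cascade of plasma proteases made mainly by the liver and, in smaller amounts, by fibroblasts, macrophages and epithelia of many organs. The classical route starts when C1q binds a target and its partner proteases C1r and C1s cut C4 and C2, whose fragments form an enzyme that cuts C3; the alternative route builds its C3-cutting enzyme from C3 itself and factor B. Host cells hold the cascade back with soluble inhibitors such as C1 inhibitor and factor I and with membrane proteins such as Cd55. In bulk tissue, fewer cells of a type and less RNA per cell cannot be told apart.

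Library totals lay between 28748604 and 39161666 counts, and each level below is in CPM, the count scaled to the depth of the library, over the genes named in both tables, with TMM scaling (a trimmed-mean correction for library composition) across the 16 libraries. Levels are compared between samples for 1 gene and not between genes, because the transcript lengths were not used here. Secretory markers of the labelled tissue were present: 8 of 10 were measured, with sums of 19320 to 97163 CPM in PND540 GLLP, 24023 to 110475 CPM in PND540 CTR, 26753 to 36512 CPM in PND21 GLLP and 42963 to 53210 CPM in PND21 CTR libraries. PND540 CTR replicate 5 stood apart, with a median correlation of 0.863 to the other 8 libraries of its age. Each of those had at least 0.968. Its level of Pbsn, the gene of the secretory protein probasin, was 0.0391 CPM, and the other PND540 libraries had 0.739 to 40.8 CPM. Its secretory sum, at 67442 CPM, lay within the range of its group. Markers of hepatocytes, the main source of complement, were all 5 measured and summed to at most 9.65 CPM in any library, with Fgb at 0 in both PND540 groups.

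RefSeq gave a promoter for 5 of the 9 genes on the GRCr8 assembly, which is not the build of the counts. The 250 bases before the start are shown for C1r, at the head of the classical route, for C4b, the member with the widest difference between ages in GLLP offspring, and for C3, where all routes meet. Capitals mark a match to the C/EBP motif TTGCNNAA, a factor family known to act on acute-phase genes in liver.
C1r promoter, chr4:159098763-159099012, plus strand: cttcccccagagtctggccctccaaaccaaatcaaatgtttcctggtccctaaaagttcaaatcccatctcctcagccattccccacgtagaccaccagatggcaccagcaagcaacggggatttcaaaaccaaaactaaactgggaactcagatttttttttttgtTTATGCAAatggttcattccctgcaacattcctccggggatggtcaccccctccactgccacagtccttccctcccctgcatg
C4b promoter, chr20:4201729-4201978, plus strand: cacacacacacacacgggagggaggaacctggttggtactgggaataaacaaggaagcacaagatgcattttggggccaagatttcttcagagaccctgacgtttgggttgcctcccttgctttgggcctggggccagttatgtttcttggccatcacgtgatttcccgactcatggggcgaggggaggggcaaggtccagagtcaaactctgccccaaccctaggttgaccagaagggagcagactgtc
C3 promoter, chr9:2201340-2201589, minus strand: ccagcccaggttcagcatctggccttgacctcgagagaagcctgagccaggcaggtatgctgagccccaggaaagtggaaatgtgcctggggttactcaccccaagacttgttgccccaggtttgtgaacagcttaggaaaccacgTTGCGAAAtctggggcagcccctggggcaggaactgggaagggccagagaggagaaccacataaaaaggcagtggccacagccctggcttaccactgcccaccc
The match lay 83 bases before the start in C1r, on the opposite strand, and 104 bases before it in C3; C4b had none. Both strands were searched for TTGCNNAA, which 9.22% of 33469 RefSeq promoters of this length hold, and 2 of the 5 members had it. The interferon-stimulated response element TTTCNNTTT was found in Cfi alone of the 5, against 10.3% of all promoters. No match was found in the 5 for NF-kB (GGGANTTCC, 1.43% of all promoters), the gamma-activated site (TTCNNNGAA, 7.67%), the TATA box (TATAAA, 12.9%) or the single arm AGAACA of the androgen response element (17.5%). These matches describe letters in a window and say nothing of binding.

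The question between the ages was how the gland at PND540 differs from the gland at PND21 under each maternal diet. Of the 9 genes, C2, C4b and Cfb rose at PND540 in CTR offspring and also in GLLP offspring, and no member fell past the threshold (called lower among all genes: 13.2% in CTR, 17.1% in GLLP). The rises were 6.17-fold for C2, 5.79-fold for C4b and 2.88-fold for Cfb in CTR offspring, and 8.78-fold, 19.0-fold and 3.70-fold in GLLP offspring. Across all genes tested, 17.3% were called higher at PND540 in CTR (edgeR's quasi-likelihood test, Benjamini-Hochberg adjusted p under 0.05, 13510 genes) and 19.1% in GLLP (13694 genes). Among 13397 genes tested in both diets, 12.7% were called higher in both, as were 3 of the 9 members.

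C2 encodes the protease of the classical C3-cutting enzyme. It had 48.1, 14.7, 35.7 and 39.5 CPM in the 4 PND540 GLLP libraries and 12.3, 28.2, 28.4, 22.1 and 18.3 CPM in the 5 PND540 CTR libraries. At PND21 it had 2.97, 4.05 and 4.66 CPM in GLLP and 2.76, 3.31, 4.52 and 3.59 CPM in CTR libraries. Every PND540 library lay above every PND21 library, as was so in a share of 18.7% of all genes tested in CTR and 22.8% in GLLP. The log2 fold change was 2.63 (SE 0.30, edgeR adjusted p = 0.000187) in CTR and 3.13 (SE 0.41, edgeR adjusted p = 0.000485) in GLLP.

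C4b encodes complement C4, whose larger fragment bonds covalently to targets. It had 118, 29.6, 107 and 98.4 CPM in PND540 GLLP libraries and 14.3, 54.9, 72.7, 26.7 and 35.4 CPM in PND540 CTR libraries. At PND21 it had 3.44, 7.24 and 3.16 CPM in GLLP and 6.52, 4.32, 6.29 and 11.1 CPM in CTR libraries. Here too the ages did not overlap within either diet, although the lowest PND540 CTR library, at 14.3 CPM, lay close to the highest PND21 CTR library. The log2 fold change was 2.53 (SE 0.49, edgeR adjusted p = 0.00348) in CTR and 4.24 (SE 0.54, edgeR adjusted p = 0.00044) in GLLP, and C2 and C4b kept their calls in all 9 CTR and all 7 GLLP fits that each left out 1 library.

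Cfb encodes factor B, the protease of the alternative C3-cutting enzyme. It had 71.6, 9.19, 48.2 and 59.6 CPM in PND540 GLLP libraries and 11.9, 36.9, 47.8, 17.6 and 38.3 CPM in PND540 CTR libraries. At PND21 it had 7.63, 15.7 and 14.5 CPM in GLLP and 7.68, 8.25, 13.2 and 13.3 CPM in CTR libraries. The ages overlapped, since GLLP replicate 2 and CTR replicate 1 at PND540 lay inside the PND21 range. The log2 fold change was 1.53 (SE 0.42, edgeR adjusted p = 0.0205) in CTR and 1.89 (SE 0.60, edgeR adjusted p = 0.0357) in GLLP. In GLLP the call held in 1 of 7 fits that left out a library, with adjusted p from 0.000833 without PND540 replicate 2 to 0.109, and it was lost with scaling by library size alone (adjusted p = 0.053) and with no filter on low counts (adjusted p = 0.0501). In CTR it was lost without PND21 replicate 1 (adjusted p = 0.0663) or replicate 2 (adjusted p = 0.0671).

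**Figure D1:**
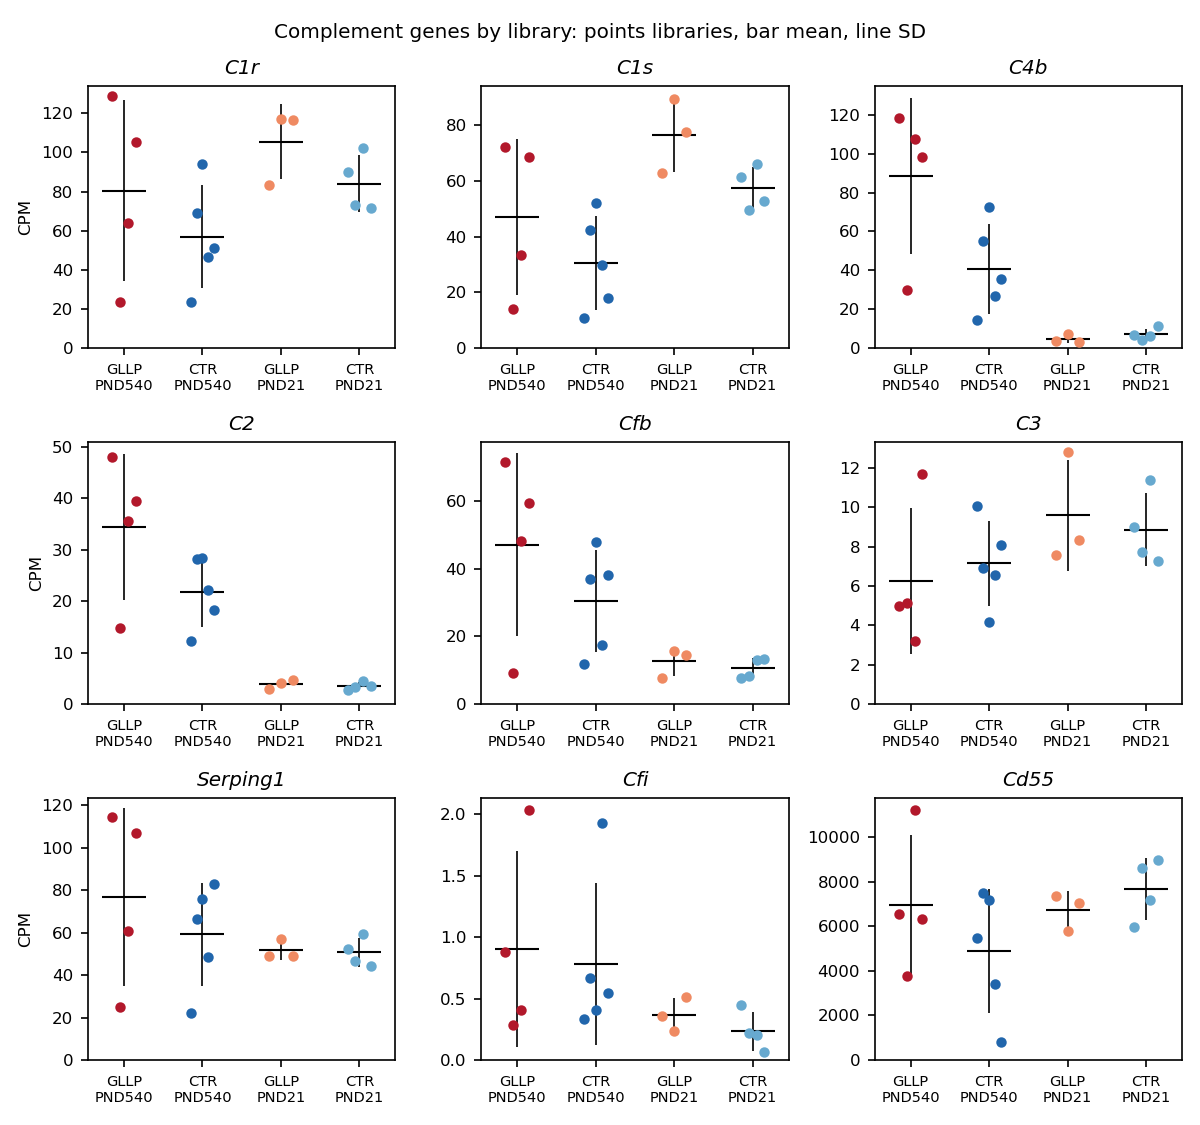
CPM of each of the 9 genes by library, on linear axes from 0, with PND540 GLLP, PND540 CTR, PND21 GLLP and PND21 CTR from left to right; points are libraries, bars means and lines SD. C2 and C4b have no PND21 library as high as any PND540 library, while the other 7 genes overlap between the ages.

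The ages were counted into separate tables, so age and table cannot be told apart, and values that bear on this are given for C4b first. Its near copy C4a had 0 counts in all 7 PND21 libraries and 12 to 83 counts at PND540. With the counts of both copies summed, a choice made after seeing the data, the age log2 fold change was 2.58 (edgeR adjusted p = 0.00298) in CTR and 4.27 (edgeR adjusted p = 0.000423) in GLLP. As C4a had 0 counts at PND21, the sum added counts at PND540 alone and could not have lowered the fold change. It therefore does not tell age from table. Of the 19709 shared genes, 26 had 0 counts in every PND21 library and a mean of at least 5 CPM at PND540, and 3 had the reverse.

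C2, Cfb and C4b also lie close together in the RefSeq order of rat genes, in the class III stretch of the major histocompatibility complex: C2 and Cfb are adjacent, 4 genes separate Cfb from C4a, and 12 more separate C4a from C4b. Of 34 tested neighbours that are not among the 9 genes, 11 were called higher and 4 lower at PND540 in CTR, and 4 were called higher and 8 lower in GLLP, where all genes tested had 17.3% higher and 13.2% lower in CTR and 19.1% higher and 17.1% lower in GLLP. The 4 called higher under both diets were C4a, Hspa1a and Tap2, with at most 1 count in any PND21 library, and RT1-Da, which encodes a chain of a class II molecule and rose by 3.22 on the log2 scale in CTR (edgeR adjusted p = 0.00119) and by 1.56 in GLLP (edgeR adjusted p = 0.0022). The class II genes RT1-Db1 and RT1-Ba rose in CTR, by 1.85 and 1.86, and had -0.03 and 0.33 in GLLP, which did not pass. Nelfe, a transcription elongation factor gene next to Cfb, had a log2 fold change of 0.77 in CTR, which did not pass, and fell by 0.39 in GLLP. Notch4, a receptor gene next to C4b, fell by 1.25 in CTR and by 1.72 in GLLP. C1r and C1s are adjacent as well, and of 20 tested neighbours 6 were called higher and 4 lower in CTR and 5 higher and 4 lower in GLLP. The 5 called higher under both diets were C3ar1, Atn1 and 3 genes with at most 1 count in any PND21 library, Pex5, Grcc10 and Tpi1. Beside them, C1rl, which encodes a C1r-like protease, fell, by 1.59 on the log2 scale in CTR and by 1.77 in GLLP.

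**Figure D2:**
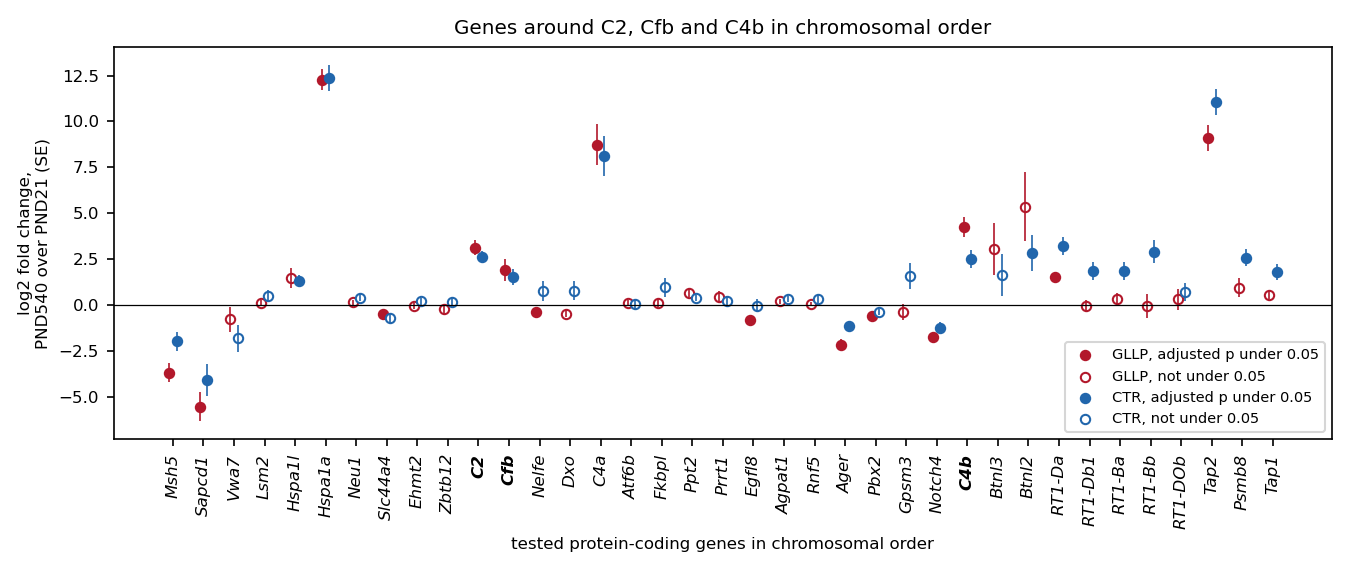
The log2 fold change of PND540 over PND21, with its SE, for tested genes around C2, Cfb and C4b in chromosomal order, in GLLP (red) and CTR (blue), filled where the edgeR adjusted p is under 0.05. C2, Cfb and C4b are filled in both diets while the genes beside them scatter on both sides of 0; Hspa1a, Tap2 and C4a had at most 1 count in any PND21 library, so the heights of these 3 depend on the prior count.

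C1r and C1s encode the paired proteases of the C1 complex, and neither passed the test between the ages. C1r had 129, 23.7, 63.7 and 105 CPM in PND540 GLLP libraries, 23.8, 69.1, 94.2, 46.7 and 51.0 CPM in PND540 CTR libraries, 83.2, 117 and 116 CPM in PND21 GLLP libraries and 89.7, 72.9, 102 and 71.5 CPM in PND21 CTR libraries. C1s had 72.1, 14.1, 33.5 and 68.4 CPM in PND540 GLLP libraries, 10.7, 42.4, 51.9, 29.8 and 18.0 CPM in PND540 CTR libraries, 62.6, 89.5 and 77.6 CPM in PND21 GLLP libraries and 61.3, 49.6, 66.1 and 52.7 CPM in PND21 CTR libraries. The ages overlapped for both genes under both diets, and the PND540 libraries were the more scattered. Their log2 fold changes were -0.56 (SE 0.34) and -0.91 (SE 0.40) in CTR and -0.40 (SE 0.46) and -0.71 (SE 0.47) in GLLP, for C1r and C1s in that order, with edgeR adjusted p from 0.119 to 0.54.

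Serping1 encodes C1 inhibitor, which inactivates C1r and C1s. It had 114, 25.1, 60.5 and 107 CPM in PND540 GLLP libraries and 22.2, 66.5, 75.7, 48.3 and 82.7 CPM in PND540 CTR libraries. At PND21 it had 48.8, 56.9 and 49.1 CPM in GLLP and 52.3, 46.7, 59.3 and 44.4 CPM in CTR libraries. All 7 PND21 libraries lay within the PND540 range, and the age log2 fold change was 0.22 (SE 0.33, edgeR adjusted p = 0.638) in CTR and 0.56 (SE 0.44, edgeR adjusted p = 0.351) in GLLP. Without PND540 GLLP replicate 2, Serping1 was called higher in GLLP, at 0.86 (edgeR adjusted p = 0.0262).

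Set against its target proteases within a library, Serping1 did separate the ages. The ratio of Serping1 CPM to the summed CPM of C1r and C1s ran from 0.568 to 0.665 in PND540 GLLP, 0.518 to 1.20 in PND540 CTR, 0.253 to 0.335 in PND21 GLLP and 0.346 to 0.381 in PND21 CTR libraries. The value of 1.20 came from PND540 CTR replicate 5, and without it the highest PND540 ratio was 0.665. The ratio of C1r to C1s had medians of 1.74 in PND540 GLLP, 1.81 in PND540 CTR, 1.33 in PND21 GLLP and 1.47 in PND21 CTR libraries, and its ranges of 1.54 to 2.83 at PND540 and 1.31 to 1.55 at PND21 met at their ends. These ratios were chosen after values were seen and carry no test; a ratio shows that genes differed unequally and not which one differed.

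**Figure D3:**
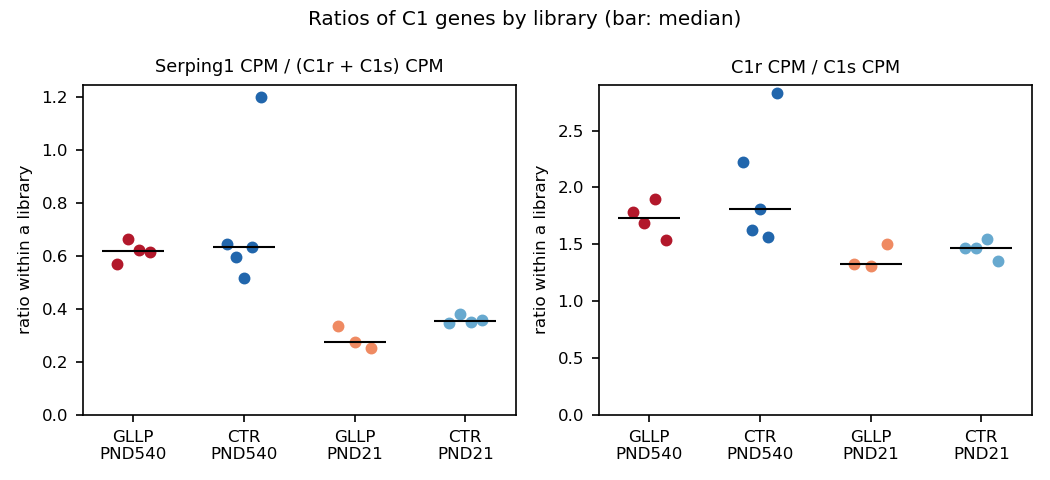
Ratios within each library of C1r to C1s and of Serping1 to the sum of C1r and C1s, by group from PND540 GLLP on the left to PND21 CTR on the right; points are libraries and bars medians. For the Serping1 ratio every PND540 library, from 0.518 upward, lies above every PND21 library, at most 0.381.

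C3 encodes the central component, which both C3-cutting enzymes split. It had 4.99, 5.15, 3.21 and 11.7 CPM in PND540 GLLP libraries and 10.1, 6.94, 4.15, 6.55 and 8.09 CPM in PND540 CTR libraries. At PND21 it had 7.60, 12.8 and 8.36 CPM in GLLP and 9.02, 7.75, 11.4 and 7.28 CPM in CTR libraries. Groups of both ages overlapped, and the age log2 fold change was -0.31 (SE 0.27, edgeR adjusted p = 0.424) in CTR and -0.62 (SE 0.43, edgeR adjusted p = 0.303) in GLLP. Without PND540 GLLP replicate 4, the highest of its group, C3 was called lower in GLLP, at -1.11 (edgeR adjusted p = 0.0248), and limma voom called it lower with all libraries kept, at -1.10 (adjusted p = 0.0181).

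Cfi encodes factor I, the protease that cuts C3b and C4b once a cofactor holds them. Its counts were few, 8 to 66 per library at PND540 and 2 to 16 at PND21. It averaged 0.901 ± 0.796 CPM in PND540 GLLP (SD, n = 4), 0.778 ± 0.657 CPM in PND540 CTR (SD, n = 5), 0.367 ± 0.139 CPM in PND21 GLLP (SD, n = 3) and 0.234 ± 0.159 CPM in PND21 CTR libraries (SD, n = 4). The ages overlapped, and the log2 fold change was 1.73 (SE 0.68, edgeR adjusted p = 0.0812) in CTR and 1.29 (SE 0.74, edgeR adjusted p = 0.211) in GLLP. DESeq2 called Cfi higher in CTR (adjusted p = 0.0424) and limma voom called it higher in GLLP (adjusted p = 0.0495).

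Cd55 encodes decay-accelerating factor, a lipid-anchored membrane protein that dismantles the C3-cutting enzymes. It took 0.530%, 0.354%, 0.843% and 0.611% of all counts in PND540 GLLP libraries and 0.455%, 0.641%, 0.572%, 0.356% and 0.0560% in PND540 CTR libraries. At PND21 its share was 0.674%, 0.568% and 0.673% in GLLP and 0.514%, 0.730%, 0.615% and 0.785% in CTR libraries. The ages overlapped, and the low value of 0.0560% belonged to CTR replicate 5. The age log2 fold change was -0.65 (SE 0.52, edgeR adjusted p = 0.369) in CTR and 0.04 (SE 0.35, edgeR adjusted p = 0.948) in GLLP.

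Cell type markers also differed between the ages, and their part in the age differences was not tested. The summed CPM of 6 of 6 stromal fibroblast markers ran from 155 to 595 in PND540 GLLP, 66.98 to 446 in PND540 CTR, 5685 to 7150 in PND21 GLLP and 3968 to 5876 in PND21 CTR libraries. The sum of 8 of 8 macrophage markers ran from 474 to 915 CPM in PND540 GLLP, 526 to 1596 CPM in PND540 CTR, 202 to 297 CPM in PND21 GLLP and 129 to 306 CPM in PND21 CTR libraries. The members of these lists did not move alike. Of the macrophage markers, Cd14, at 296 to 1401 CPM at PND540 and 56.8 to 194 CPM at PND21, and Lyz2 lay higher at PND540 without overlap, and the other 6 overlapped between the ages. Mrc1 ran from 0.712 to 13.5 CPM at PND540 and from 12.5 to 22.3 CPM at PND21. Of the fibroblast markers, Col1a1, Col3a1 and Lum lay lower at PND540 without overlap, Dcn and Pdgfra overlapped, and Col1a2 lay higher, at 0.235 to 9.40 CPM at PND540 and 0.0321 to 0.133 CPM at PND21. Col1a1 stood at 1738 to 3592 CPM in the same PND21 libraries. The cause of the low Col1a2 values at PND21 was not tested, and age and table cannot be told apart. The sum of 10 of 11 interferon-response genes ran from 160 to 260 CPM in PND540 GLLP and 185 to 616 CPM in PND540 CTR libraries. At PND21 it ran from 81.7 to 134 CPM in GLLP and from 77.6 to 126 CPM in CTR libraries. Of these genes only Ifit3 did not overlap between the ages, at 0.644 CPM or more at PND540 and 0.636 CPM or less at PND21. All the others overlapped, among them Tap1, at 40.6 to 258 CPM at PND540 and 31.7 to 47.5 CPM at PND21.

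The diet comparison asked what the maternal low protein diet did to these genes at each age. At PND540 no member was called by edgeR, as was so for all 14767 genes tested (0%), and no member by DESeq2 or limma voom; at an unadjusted p under 0.05 edgeR had 1 member, C4b, beside 0.833% of all genes. The log2 fold change of GLLP over CTR was positive for 8 of the 9 genes, beside 50.0% of all genes. Its median was 0.52 over the 9 genes and close to 0.00 over all genes. At PND21 it was positive for 7 of the 9, beside 49.5% of all genes. Most of the 9 genes shared their lowest and highest PND540 libraries, as given below, so these are not 9 separate observations. C4b had 1.12 (SE 0.49, unadjusted p = 0.0466, edgeR adjusted p = 0.914), with a mean of 88.5 ± 40.1 CPM in GLLP (SD, n = 4) and 40.8 ± 23.2 CPM in CTR (SD, n = 5). C2 had 0.66 (SE 0.36), Cfb 0.62 (SE 0.56), C1s 0.62 (SE 0.53), Cd55 0.52 (SE 0.56), C1r 0.50 (SE 0.48), Serping1 0.37 (SE 0.47) and Cfi 0.20 (SE 0.70), while C3 had -0.21 (SE 0.41). Groups overlapped for every member, as for all but 0.393% of genes tested, and every member's edgeR adjusted p was at least 0.914.

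At PND21 no member was called by edgeR, against 1.11% of 14915 genes tested. By edgeR 1 member, C1s, had an unadjusted p under 0.05, beside 19.3% of all genes. DESeq2 called no member and 972 genes in all. Limma voom called 2 members, C1s and C1r, and 3455 of the 14915 genes. C1s averaged 76.6 ± 13.5 CPM in GLLP (SD, n = 3) and 57.4 ± 7.62 CPM in CTR (SD, n = 4), a log2 fold change of 0.42 (SE 0.14, edgeR adjusted p = 0.174). Its partner C1r averaged 105 ± 19.3 CPM in GLLP (SD, n = 3) and 84.1 ± 14.7 CPM in CTR (SD, n = 4), a log2 fold change of 0.33 (SE 0.16, edgeR adjusted p = 0.295). The groups overlapped for both, and for all 9 members, where 17.1% of genes tested did not overlap. Without GLLP replicate 2, C1s was called higher at 0.54 (edgeR adjusted p = 0.0351), in a fit that called 1509 genes, against 166 with all libraries. The fibroblast sum was 5685, 7150 and 6926 CPM in the GLLP libraries and 4127, 4282, 5876 and 3968 CPM in the CTR libraries, and the sum of 5 of 5 skeletal muscle markers ran from 902 to 1010 CPM in GLLP and from 343 to 432 CPM in CTR, without overlap. Of the muscle markers, Ckm had 40.7 to 66.2 CPM in GLLP and 0.882 to 1.28 CPM in CTR. The part of either list in the C1r and C1s values was not tested. C4b had -0.60 (SE 0.38), Cfi 0.62 (SE 0.58), Cfb 0.26 (SE 0.29), Cd55 -0.19 (SE 0.17), C2 0.14 (SE 0.23), C3 0.12 (SE 0.23) and Serping1 0.03 (SE 0.12) on the log2 scale.

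The interaction asks whether the diet difference at PND540 departs from that at PND21. No member was called by edgeR, DESeq2 or limma voom, beside 0.0917% of 14178 genes by edgeR, and 1 member had an unadjusted p under 0.05, where 5.17% of genes did. That member was C4b, with a log2 difference of 1.72 (SE 0.72, unadjusted p = 0.0293, edgeR adjusted p = 0.738), its GLLP mean lying above the CTR mean at PND540 and below it at PND21. Its levels by group were therefore ordered PND540 GLLP, PND540 CTR, PND21 CTR, PND21 GLLP, and within an age neither neighbouring pair passed the test. C2 and Cfb were ordered by their means as PND540 GLLP, PND540 CTR, PND21 GLLP, PND21 CTR, again with the pairs of 1 age not passing.

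**Figure D4:**
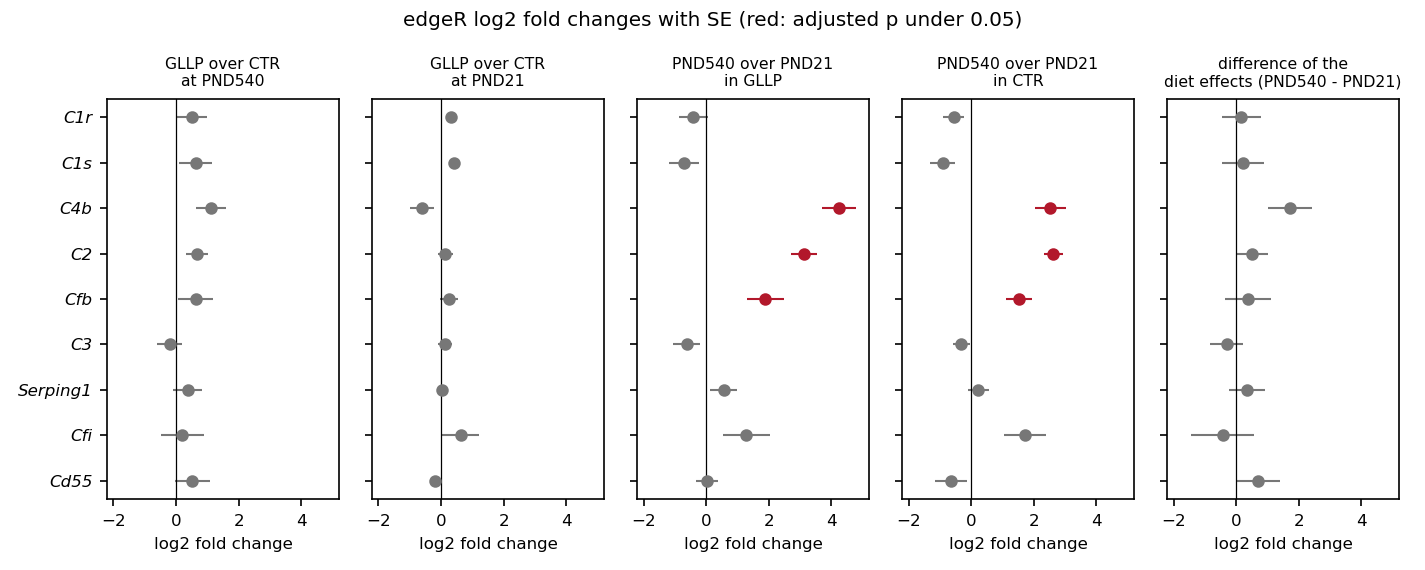
The edgeR log2 fold change of each gene, with its SE, in the diet comparisons (GLLP over CTR), the age comparisons (PND540 over PND21) and the interaction, with red points where the adjusted p is under 0.05. Red points appear for C2, C4b and Cfb in both age comparisons and nowhere else.

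Among the PND540 glands the same libraries were low or high for most of the 9 genes, within both diets. CTR replicate 1 and GLLP replicate 2 were the lowest pair of the 9 libraries for 6 genes, namely C2, Cfb, Cfi, C1r, C1s and Serping1, and for 4.34% of all 14767 genes tested. GLLP replicates 1 and 4 were the highest pair for 5 genes, C2, Cfb, C1r, C1s and Serping1, and for 2.51% of all genes. The same 5 genes met both conditions, beside 0.752% of all genes. This pattern was noticed in these libraries and is given as a description. For these ranks and the fold ranges that follow, CPM were scaled over the PND540 libraries alone. The highest library exceeded the lowest by 3.56-fold for C3, 3.89-fold for C2, 8.19-fold for C4b and 7.89-fold for Cfb. It did so by 5.50-fold for C1r, 6.69-fold for C1s, 5.09-fold for Serping1 and 13.3-fold for Cd55.

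Some genes departed from that order. C3 was lowest in CTR replicate 3 and GLLP replicate 3 and highest in CTR replicate 1 and GLLP replicate 4. Cd55 was lowest in CTR replicates 4 and 5. The fibroblast marker sum at PND540 was 586, 155, 399 and 595 CPM in GLLP replicates 1 to 4 and 66.98, 418, 446, 280 and 79.0 CPM in CTR replicates 1 to 5, so CTR replicate 1 and GLLP replicate 2 were low and GLLP replicates 1 and 4 high there too. CTR replicate 5 was also low in fibroblast markers and had 82.7 CPM of Serping1 and 38.3 CPM of Cfb. The order was not particular to fibroblast markers. The sum of 3 of 4 endothelial markers was 28.6 and 28.5 CPM in GLLP replicates 1 and 4, 12.1 CPM in GLLP replicate 2 and 9.97 CPM in CTR replicate 1. The smooth muscle sum was lowest in CTR replicate 1, at 527 CPM, and GLLP replicate 2, at 633 CPM. Luminal and macrophage sums were not ordered so, with 4381 and 915 CPM in GLLP replicate 2 and 4029 and 813 CPM in GLLP replicate 1. The part of stromal or other cell content in the order of the libraries was not tested.

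**Figure D5:**
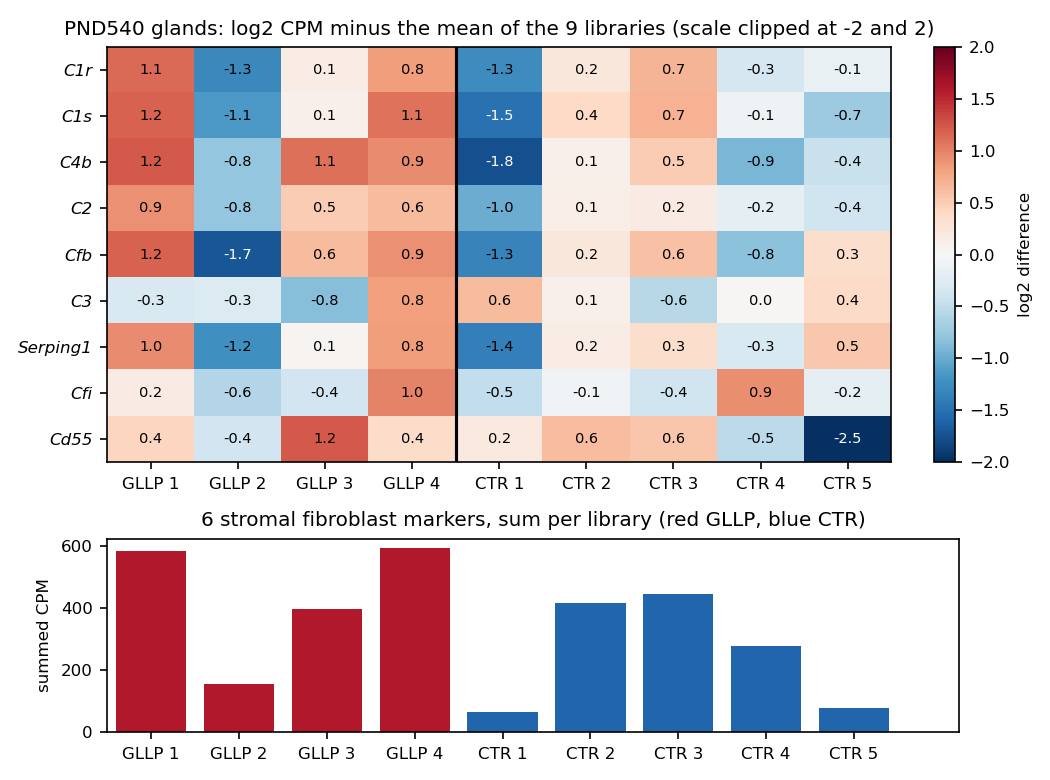
Top, log2 CPM of each gene in each PND540 library minus its mean over the 9 libraries, scaled over the PND540 libraries alone. GLLP replicates are on the left and CTR replicates on the right. Bottom, summed CPM of 6 fibroblast markers in the same libraries. GLLP 2 and CTR 1 are low for C2, Cfb, C1r, C1s and Serping1 and have fibroblast sums of 155 and 66.98 CPM.

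Spread within groups was wider at PND540 than at PND21 for each of the 9 genes, as for the median gene. The pooled within-group SD of log2 CPM, with 0.5 CPM added, was 0.483 at PND540 and 0.192 at PND21 for the median gene. It was 1.08 at PND540 and 0.467 at PND21 for Cfb, 0.912 and 0.553 at the same ages for C4b, and 0.872 and 0.163 for Serping1. Cfb was more variable than 94.6% of all genes at PND540 and than 93.9% at PND21, whereas Serping1 was more variable than 88.0% at PND540 and than 39.8% at PND21.

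The rest of the pathway was read from a list of 49 further complement genes, 30 of which could be tested between the ages in each diet. In CTR 11 were called higher and 4 lower at PND540, beside 17.3% higher and 13.2% lower over all genes, and the median over the 30 genes, on the log2 scale, was 0.64, beside 0.07 over all genes. In GLLP 15 were called higher and 3 lower, beside 19.1% higher and 17.1% lower over all genes, and the median was 0.65, beside 0.02 over all genes. Those called higher under both diets include C4a and Cpn1, which had at most 2 counts in any PND21 library. The medians were the same with C4a, and in GLLP also Cpn1, set at the bound that 3 counts per library give. As these genes still lay above the medians there, this could not have changed them. Of the initiators, Masp1, a protease of the lectin route, rose by 4.48 on the log2 scale in CTR (SE 0.35, edgeR adjusted p = 1.81e-05) and by 4.43 in GLLP (SE 0.67, edgeR adjusted p = 0.00111). Colec12, a collectin on cell surfaces, had 1.05 (SE 0.64) in CTR, which did not pass, and rose by 2.30 in GLLP (SE 0.28, edgeR adjusted p = 0.00036). Cfd, the protease that activates factor B, had 1.64 (SE 0.76) in CTR, which did not pass, and rose by 2.05 in GLLP (SE 0.27, edgeR adjusted p = 0.00047).

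Of the 3 chains of C1q, which macrophages are known to make, C1qa and C1qc passed under both diets and C1qb in CTR. C1qa rose by 2.11 on the log2 scale in CTR (SE 0.56) and by 0.86 in GLLP (SE 0.23), and C1qc by 1.46 in CTR (SE 0.38) and by 0.59 in GLLP (SE 0.20), with edgeR adjusted p from 0.0159 to 0.0458. C1qb rose by 1.77 in CTR (SE 0.53, edgeR adjusted p = 0.0304) and had 0.53 in GLLP (SE 0.26, edgeR adjusted p = 0.152). The highest C1qa level was 212 CPM, in CTR replicate 5 at PND540. Its macrophage sum of 1596 CPM held 1401 CPM of Cd14. Its Cd14 and its Aif1, at 68.0 CPM, were the highest of the PND540 libraries. Its Adgre1, at 2.81 CPM, was the lowest of them, and the other macrophage markers lay in between. C3ar1, the receptor of the C3a fragment, rose by 3.44 in CTR (SE 0.42) and by 2.84 in GLLP (SE 0.44). Among regulators, Clu, a secreted chaperone that blocks the terminal complex, rose by 5.57 in CTR (SE 0.86) and by 5.28 in GLLP (SE 0.74). Cr1l, a rodent membrane regulator, had 0.19 (SE 0.18) in CTR and rose by 0.52 in GLLP (SE 0.15, edgeR adjusted p = 0.0212). No gene of the list was called by edgeR for diet at either age, beside 1.11% of all genes at PND21 and 0% at PND540. At an unadjusted p under 0.05 edgeR had 3 of 29 tested at PND21, beside 19.3% of all genes. At PND540 it had 0 of 31, beside 0.833% of all genes.

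The genes most like C3 over the 16 libraries, by root mean square difference of log2 CPM centred on each gene's mean, were Sp140 at 0.30, St6galnac4 at 0.30 and Sars2 at 0.32, among 9961 genes with a mean of at least 5 CPM and a median difference of 0.68. Those most like Serping1 were Cxcl14 at 0.26, Cpq at 0.28 and Adgrd1 at 0.28, against a median difference of 0.75. Among the members, C1r and C1s differed by 0.27 on this measure, C1r and Serping1 by 0.49 and C2 and C4b by 0.56, whereas C3 and C4b differed by 2.04.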

How the data were processed

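The deposited values are raw counts, 1 whole number per gene and library, in a table for each age with no scaling applied. The names STAR, edgeR 3.34.0 and Rnor_6.0 come without roles, per the submitters' processing notes; how reads were counted, with which annotation and whether by strand, is not given in the sources used here, and without strand, reads of overlapping genes cannot be told apart. RNA was extracted with Trizol and a company prepared standard Illumina libraries, per the labels' protocols. The members and lists were chosen with earlier results of these data known.

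The test for all genes was that of edgeR 4.0.16 under R 4.3.3 (low genes removed by filterByExpr at a minimum count of 10, TMM, robust quasi-likelihood test, Benjamini-Hochberg threshold 0.05), each diet comparison within its table, age and interaction on shared names. Entries with names that looked like dates or were repeated were left out of naming. An SE is the log2 fold change divided by the square root of F. Replicate pairs differed far beyond sampling noise (chi-square per degree of freedom 30.3 to 829). The fits were also run on simulated data with set fold changes, and no result given here rests on that. All 9 members are reported; of the 49 listed pathway genes, those named are C1qa, C1qb, C1qc, C3ar1, Cr1l and the 4 with the smallest p per age comparison, and C1rl, the neighbours and the single markers named were chosen after their values were seen. Alternatives were RLE factors, library size alone, DESeq2 1.42.0, limma 3.58.1 voom with sample weights, no filter, a filter at 1 CPM, a joint fit, a replicate block, and each library left out. Some items that the naming rule takes are not reported here. Figures used matplotlib 3.10.9.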

Additional observations from a re-analysis of the deposited data

Results flagged for a closer look

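Cfi in PND540 CTR replicate 4 stood at 1.93 CPM, far from the other 4 libraries of its group, the nearest of which had 0.670 CPM. The gap was 0.790 of the whole range of the group. It was the 1 value so placed among 27 groups of 4 or 5 libraries tested, where chance places about 1 in 20 groups, and its counting error is wide because Cfi had 8 to 66 counts per library at PND540.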

How the results depend on the processing

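Of the log2 fold changes of the 9 genes over all comparisons and settings, 818 kept direction and side of the threshold, 10 lost and 9 gained a call, and 21 changed sign; the cause was not tested. Calls for C2 and C4b between the ages held under every setting run. At PND21 edgeR called 166 genes for diet, against 972 by DESeq2, 650 with library size alone, 3455 by limma voom, 40 in the joint fit and 27 with a replicate block; leaving out a library gave 62 to 1509 (1509 without GLLP replicate 2, 62 to 75 without GLLP replicate 3 or any CTR replicate), with 0 to 1 members called, and voom called 2. At PND540 edgeR called 0 genes for diet and DESeq2 2. For age in CTR 4117 were called, against 7384 by voom, and 3040 to 6574 with a library left out, the highest without PND540 replicate 5. For age in GLLP 4952 genes were called, against 6998 of 13694 by voom. Voom called 5 members there, Cfi higher and C3 lower besides C2, C4b and Cfb. For the interaction 13 were called, against 46 by DESeq2, 35 by voom and 7 to 16 with a library left out (7 or 8 without PND21 replicate 2 or 3 of either diet). Library size alone shifted the median of all genes by 0.14 at PND21 and by -0.11 in CTR and -0.17 in GLLP between ages, and gave Serping1 57.6 CPM in PND21 GLLP.

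Signs changed only for values that had not passed the edgeR test with all libraries kept. Not all of these were near 0 there. C4b for diet at PND21 had -0.60 (SE 0.38), and Cfi for the interaction had -0.43 (SE 1.01). Between ages, Serping1 in CTR had -0.040 with the block, and Cd55 in GLLP -0.17 with library size alone, -0.069 with the block and -0.29 to 0.25 with a library left out. At PND21 C4b had 0.088 by voom, and leaving out a library gave -0.0079 to 0.30 for C2, -0.15 to 0.26 for C3 and -0.045 to 0.12 for Serping1. At PND540 it gave -0.67 to 0.0075 for C3 and -0.53 to 0.87 for Cfi. For the interaction, C1r had -0.013 by voom and -0.17 to 0.47 with a library left out, C1s -0.15 by voom, -0.045 with the block and -0.089 to 0.51, and Cfi -1.21 to 0.24. Same-numbered samples correlated at -0.17 to 0.30 in their deviations, and in no comparison was every sample closest to its own number. With 3 or 4 such pairs per comparison, this cannot exclude that the numbers pair the samples. The replicate block called 6012 genes for age in CTR and 3814 in GLLP, where C1s was called lower (edgeR adjusted p = 0.0357). Cfi had no value with the 1 CPM filter. Depth limits the values of Cfi, at 2 to 66 counts per library.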

Other observations

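Cfb and C3, the partners of the alternative C3-cutting enzyme, stood in different proportion at the ages. The ratio of Cfb CPM to C3 CPM had a median of 9.73 in PND540 GLLP, 4.73 in PND540 CTR, 1.23 in PND21 GLLP and 1.11 in PND21 CTR libraries. Its range was 1.18 to 14.99 at PND540 and 0.851 to 1.83 at PND21, so the ages overlapped. The ratio of C4b to C2 ran from 1.17 to 3.01 at PND540 and from 0.678 to 3.09 at PND21. These ratios were chosen after values were seen and carry no test.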
